A study of Bos taurus with 8 samples.

Results

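DNA methylation over 10 genes of transforming growth factor beta (TGF-beta) signalling was described in bovine dermal fibroblasts by MIRA-Seq, in which methylated fragments of sonicated genomic DNA are pulled down with methyl-CpG binding proteins and sequenced. The genes were the ligands TGFB1, TGFB2 and TGFB3, the receptors TGFBR1, TGFBR2 and TGFBR3, and the intracellular mediators SMAD2, SMAD3, SMAD4 and SMAD7. They were taken by gene symbol, with no measured value in the rule. All consecutive 3Kb windows whose gene symbol was that of a member were taken, with 2 windows on each side. This gave 226 windows with a member's name and 40 flanking windows, or 266 of 902984 windows of the genome, and 10 of 26134 named genes. The cultures were un-treated dermal fibroblasts at passage 5 from 4 Holstein (dairy) and 4 Angus (beef) heifers, with 1 culture and 1 library per animal and no pooled animals, grown in DMEM with fetal bovine serum. Breed therefore rests on 4 animals on each side, and no agent or LPS treatment separates the groups. The authors also describe different rearing, with milk replacer for Holstein calves and months of nursing for Angus calves. Genetic differences between the breeds and their rearing cannot be told apart here. Libraries are called by breed and animal number.

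TGF-beta ligands are secreted in a latent form and, once released, bind TGFBR2, a kinase that recruits and phosphorylates TGFBR1. TGFBR3, or betaglycan, is a co-receptor that presents ligand. The activated receptor phosphorylates SMAD2 and SMAD3, which enter the nucleus with the shared partner SMAD4, and SMAD7 is an inhibitor induced by the pathway that acts at the receptor. In dermal fibroblasts the pathway is known for driving collagen synthesis and the change to contractile myofibroblasts. A CpG-rich promoter that is in use is generally low in methylation, while transcribed gene bodies are often methylated; the MIRA-Seq counts measure neither transcription nor protein.

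Levels are given as CPM, the reads of a window per 1000000 reads over all windows of that library. Because every window was 3Kb long, CPM per window compares genes and windows per length. Libraries held between 18691111 and 35525554 reads in windows, so that 3 reads in a window corresponded to 0.0844 to 0.161 CPM, a floor that covers counting error only. In Holstein 1 and Angus 3 the reads were most concentrated in few windows, and their median gene lay at 0.354 and 0.329 CPM per window, against 0.482 to 0.649 CPM in the other 6 libraries. The median of the 10 members was likewise 0.511 and 0.424 CPM per window in these libraries and 0.722 to 0.911 CPM in the others. Some gene levels, the direction of first windows and several of the breed differences named are also given without Holstein 1 and Angus 3. Pull-down counts also depend on how many CpG sites a window holds, and no input library was used here, so CpG density and methylation level cannot be told apart in a comparison between windows. Between the breeds the same window is compared, where differences in sequence or copy number of the DNA cannot be told apart from methylation.

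The 10 genes were divided by their mean level over all windows into a higher and a lower set. TGFBR2 had the highest level with 1.37 ± 0.216 CPM per window (SD, n = 8 libraries), followed by TGFB3 with 1.19 ± 0.263, SMAD7 with 1.15 ± 0.247, SMAD3 with 1.14 ± 0.224 and TGFB1 with 0.905 ± 0.226 CPM per window. TGFB2 lay at 0.521 ± 0.133 CPM per window, which is the median of all 26134 genes (0.521). Below it came TGFBR3 with 0.343 ± 0.109, TGFBR1 with 0.305 ± 0.0895, SMAD4 with 0.272 ± 0.0869 and SMAD2 with 0.259 ± 0.0729 CPM per window. The upper 5 genes stood at percentiles 66.8 to 78.5 of all genes and the lowest 4 at percentiles 24.1 to 35.2. In 8 of 8 libraries the lowest of the upper 5 genes lay above the highest of the lower 5. The sets were cut by the means of these same libraries, so this count is no test of the split. Within the sets, several neighbours could not be ordered. TGFB3 exceeded SMAD7 in 5 of 8 libraries, SMAD7 exceeded SMAD3 in 5 and SMAD4 exceeded SMAD2 in 4, while TGFBR2 exceeded TGFB3 and SMAD3 exceeded TGFB1 in 8 of 8. In the lower set TGFB2 exceeded TGFBR3 and TGFBR3 exceeded TGFBR1 in 8 of 8 as well. Without Holstein 1 and Angus 3, TGFBR2 stood at 1.47 ± 0.121, TGFB1 at 1.01 ± 0.136, TGFB2 at 0.584 ± 0.0742 and SMAD2 at 0.284 ± 0.0650 CPM per window (SD, n = 6), and each of the 10 levels moved by less than its SD over 8 libraries. The split did not follow the roles: each of the ligands, receptors and SMADs had members in both sets.

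**Figure D1:**
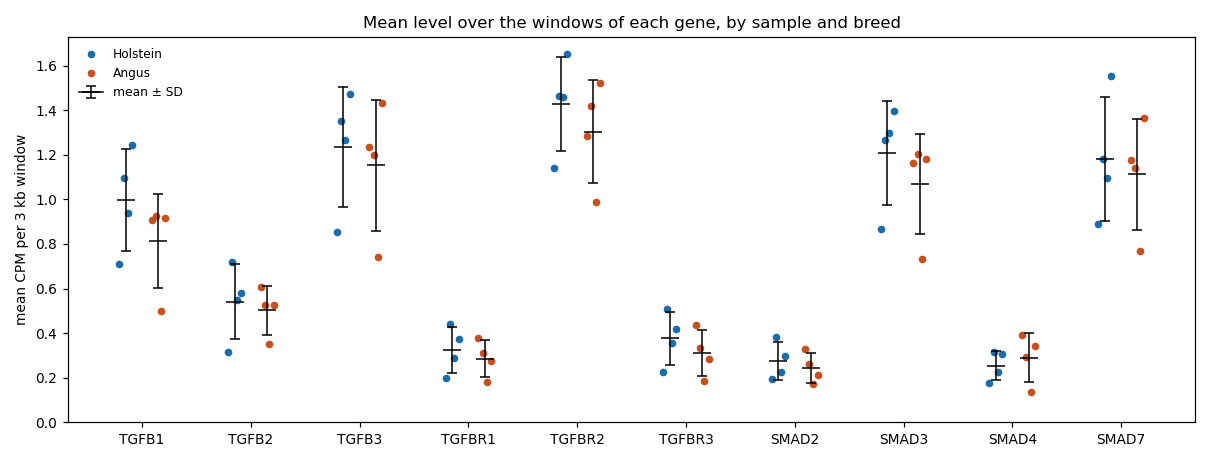
Mean CPM per 3Kb window over all windows of each gene (vertical axis), for the 4 Holstein and 4 Angus libraries as points, with the mean and SD of each breed in black. Breeds overlap in every gene, and the means of TGFB1, TGFB3, TGFBR2, SMAD3 and SMAD7 lie above those of the other 5 genes.

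Along the genes the reads were unevenly placed, and the profiles of Holstein and Angus cultures followed each other. Of the 226 member windows, 159 (70.4%) lay above the median of windows on placed chromosomes, and 14 (6.19%) were in their top 5%. These 14 windows were in 4 genes, namely 6 in SMAD3, 5 in TGFBR2, 2 in SMAD7 and 1 in TGFB3. All 42 windows of SMAD3 lay above the median of placed windows, against 6 of 18 for SMAD2 and 4 of 11 for SMAD4. Placed windows include those outside genes, and their median was 0.285 CPM, beside 0.521 CPM per window for the median gene. The share for windows of all genes was not computed, so these counts do not set the members apart from other genes.

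The highest window of the 10 genes was the 23rd of the 31 windows of TGFBR2, with the fourth coding exon, at 5206767 to 5209766 of chromosome 22 in the genome build UMD v3.1. The 8 libraries held 7.33, 7.23, 8.10 and 7.99 CPM in Holstein 1 to 4 and 7.50, 6.78, 8.83 and 9.42 CPM in Angus 1 to 4. The level was similar in all 8 libraries, including both concentrated ones, the breeds overlapped, and its mean of 7.90 CPM stood at percentile 99.6 of placed windows. The next highest in TGFBR2 was the 13th window, with coding exon 2, from 5176767 to 5179766. It held 6.52, 7.36, 7.30 and 8.02 CPM in Holstein 1 to 4 and 4.75, 6.57, 5.54 and 6.85 CPM in Angus 1 to 4. Its mean was 6.61 CPM, and the breeds again overlapped. Both windows together held 34.3% of the summed CPM of the 31 windows of TGFBR2. Without them the mean of this receptor was 0.960 CPM per window, its median window held 0.795 CPM, and 29 of its 31 windows lay above the median of placed windows.

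SMAD3, which carries the receptor signal to the nucleus, reached its highest level in its 35th window of 42, with coding exon 2, on chromosome 10 from 13957401 to 13960400. The window held 3.44, 4.54, 4.28 and 6.14 CPM in Holstein 1 to 4 and 4.05, 4.35, 2.65 and 6.79 CPM in Angus 1 to 4. Each breed had 1 library above 6 CPM, Holstein 4 and Angus 4, and the mean was 4.53 CPM. Another 4 SMAD3 windows in the top 5%, the 37th, 39th, 40th and 41st, lay in the same end of the gene with means of 2.08 to 2.37 CPM, and the remaining one was the 22nd with 2.85 CPM. In SMAD7 the highest window was the last, on chromosome 24 from 49068931 to 49071930 with coding exon 4. It held 3.19, 3.94, 2.42 and 5.21 CPM in Holstein 1 to 4 and 3.28, 3.69, 2.82 and 4.23 CPM in Angus 1 to 4. The mean of 3.60 CPM was 2.86 times the mean over the windows of this inhibitor other than its first.

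Among the ligands, the highest window of TGFB3 was the fifth of 9 with coding exon 3, at 2.79 ± 0.811 CPM (SD, n = 8), on chromosome 10 from 88253601 to 88256600. TGFB2 peaked at 1.59 ± 0.298 CPM in its 14th of 32 windows on chromosome 16, from 22532781 to 22535780, which has no coding exon. TGFB1 was highest in its last window, the sixth, on chromosome 18 from 50769198 to 50772197 with coding exon 7, at 1.55 ± 0.342 CPM. In the low set the highest windows reached 1.09 ± 0.316 CPM in TGFBR1 (window 16 of 25, chromosome 8, 64612687 to 64615686, coding exon 4), 0.812 ± 0.212 CPM in SMAD2 (window 13 of 18, chromosome 24, 47985931 to 47988930) and 0.694 ± 0.231 CPM in SMAD4 (window 9 of 11, chromosome 24, 51036931 to 51039930). By the mean over the 8 libraries, TGFBR3 was the only member whose first window was also its highest. That window held 0.897 ± 0.193 CPM and the 31st held 0.835 ± 0.305 CPM. The 31st was the higher of these in Holstein 2, 3 and 4 and Angus 4, so their order was not settled.

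**Figure D2:**
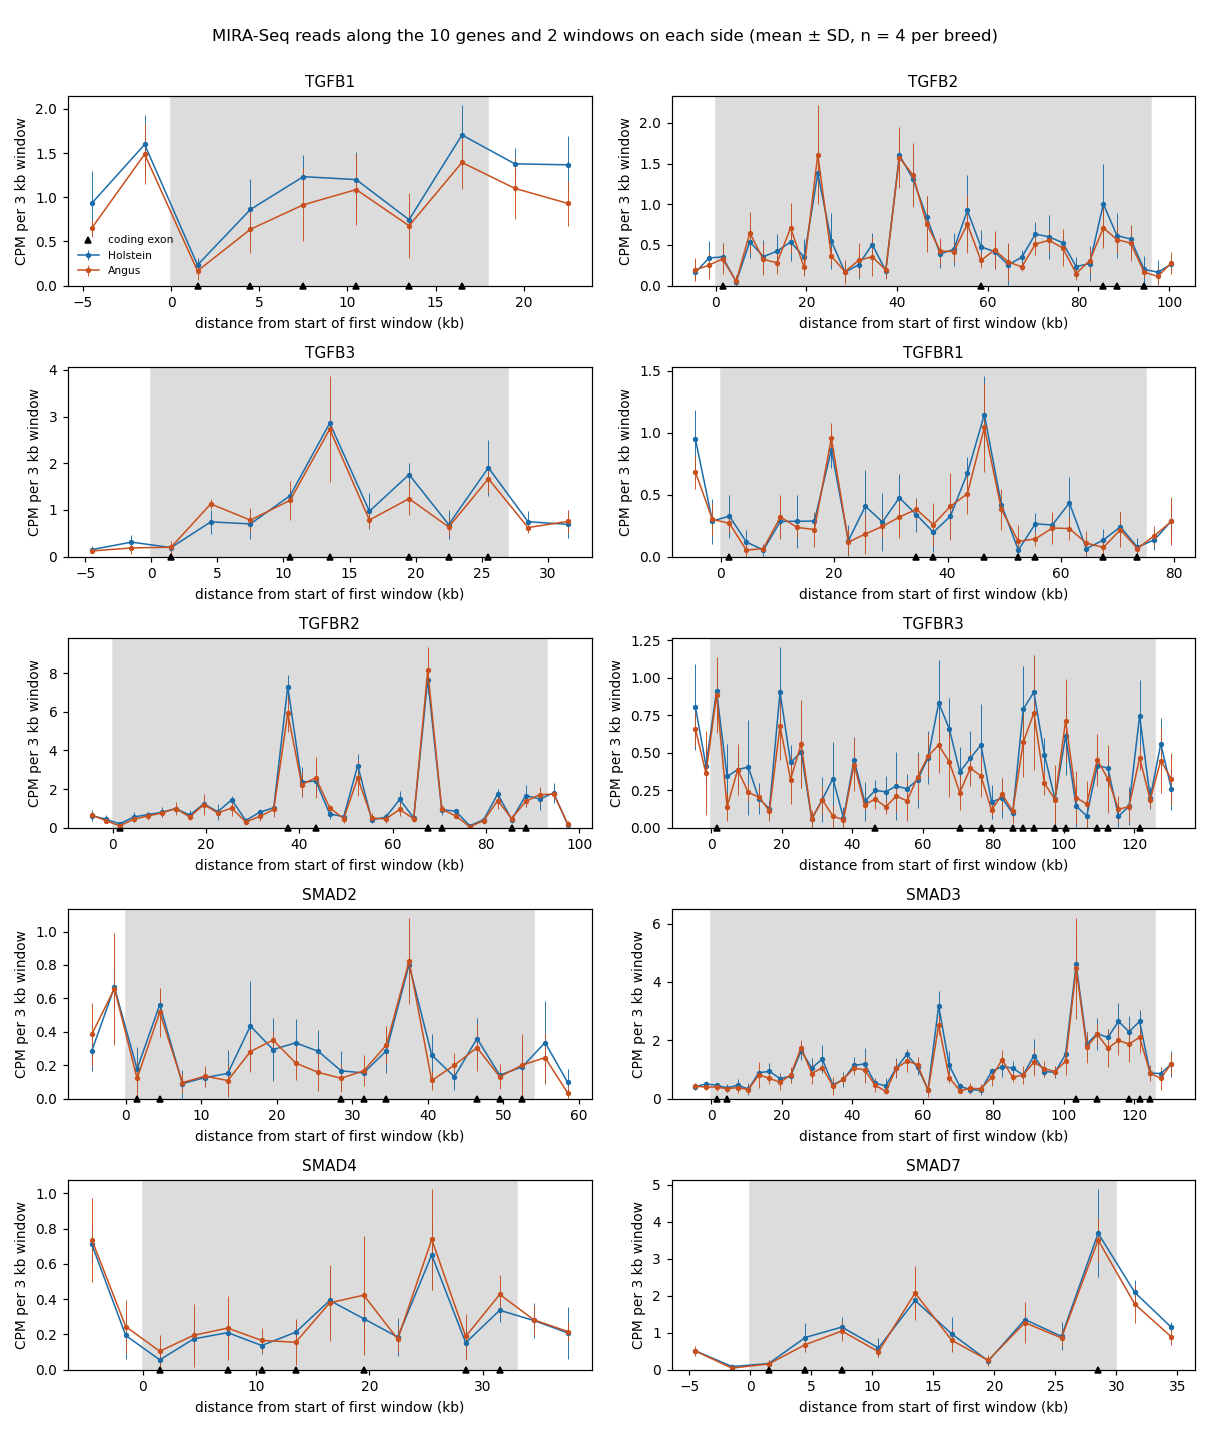
CPM per 3Kb window (vertical axis, own scale for each gene) against the distance in kb from the start of the first window, read by strand, as mean and SD of the 4 Holstein (blue) and 4 Angus (orange) libraries. The windows of the gene are shaded grey, the 2 windows on each side are unshaded, and triangles mark windows with a coding exon; the first windows are low in most genes, and 2 windows of TGFBR2 stand far above the rest.

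Windows with a coding exon could be compared with the other windows in 9 genes, leaving out first windows, since every window of TGFB1 had a coding exon. In 5 of the 9 genes the mean of the exon windows was above that of the other windows in 8 of 8 libraries, as in 50.3% of the 12138 genes that could be compared. The ratio of the means was 3.57 in TGFBR2 (3.32 ± 0.351 against 0.930 ± 0.203 CPM), 2.07 in SMAD3, 1.88 in TGFB3, 1.87 in SMAD7 and 1.41 in TGFBR3. SMAD4 had the opposite order in 8 of 8 libraries, with 0.245 ± 0.0895 CPM in its 6 exon windows and 0.361 ± 0.103 CPM in its 4 other windows, an order that 16.6% of all genes shared. TGFB2, TGFBR1 and SMAD2 had ratios of 0.952, 1.01 and 0.963, with exon windows higher in 2, 4 and 4 of 8 libraries.

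The first window of a gene, by strand, was set against the mean of the other windows of that gene within each library, to ask how the start of each gene is methylated. In all 10 members the first window carries coding exon 1. The windows lie on a fixed grid and no transcription start sites of this genome build were used here, so a first window holds the start of the coding sequence and may miss a start site further upstream. The first window was lower than the rest of the gene in 8 of the 10 members and higher in TGFBR3, by an exact two-sided sign-flip permutation test over the 8 libraries with adjustment over 21419 genes. Over all genes tested, 48.1% were lower and 21.2% were higher. TGFBR1 did not pass in either direction.

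The 3 ligands were all lower at the start. TGFB3 held 0.198 ± 0.0953 CPM in its first window and 1.32 ± 0.288 CPM in the others (ratio 0.150), TGFB1 held 0.200 ± 0.0889 and 1.05 ± 0.257 CPM (ratio 0.191), and TGFB2 held 0.340 ± 0.168 and 0.527 ± 0.133 CPM (ratio 0.644). The order was the same in 8 of 8 libraries for each, with an adjusted p of 0.0138 by the exact permutation test. The unadjusted p of this test was in each the smallest that 8 libraries allow (0.00781), so it does not rank the genes. The first windows of TGFB1 and TGFB3 held 43 and 42 reads over the 8 libraries, and TGFB3 had none in Angus 3, so single values lie near the floor.

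The receptors differed among themselves. TGFBR2 had the lowest ratio of the 10 members, 0.102. Its first window held 0.101, 0.216, 0.265 and 0.197 CPM in Holstein 1 to 4 and 0.140, 0.0695, 0.101 and 0.0535 CPM in Angus 1 to 4, against 1.02 to 1.701 CPM in its other windows, lower in 8 of 8 libraries (exact permutation test, adjusted p = 0.0138). These levels are 31 reads over the 8 libraries, and single values lie near the floor. TGFBR3 had the reverse order. Its first window, on chromosome 3 from 51744310 to 51747309, held 1.01, 0.866, 0.719 and 1.04 CPM in Holstein 1 to 4 and 1.01, 1.01, 0.504 and 1.02 CPM in Angus 1 to 4, 188 reads in total. All 8 libraries were above their own mean of the other windows, which ranged from 0.179 to 0.499 CPM (ratio 2.72, exact permutation test, adjusted p = 0.0138). This window stood at percentile 76.8 of all first windows, while the first window of TGFBR2 was at percentile 15.3. TGFBR1 held 0.298 ± 0.127 CPM in the first window and 0.306 ± 0.0896 CPM in the others, lower in 5 of 8 libraries (exact permutation test, adjusted p = 0.868). Its difference changed sign when a single library was left out.

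The 4 SMADs were lower at the start. The ratio was 0.128 in SMAD7 (0.161 ± 0.103 against 1.26 ± 0.277 CPM), 0.277 in SMAD4 (0.0806 ± 0.0749 against 0.291 ± 0.0912 CPM) and 0.373 in SMAD3 (0.431 ± 0.0951 against 1.16 ± 0.228 CPM), each lower in 8 of 8 libraries with an adjusted p of 0.0138 by the exact permutation test. The first window of SMAD4, the shared partner, was the lowest of the members with 16 reads over the 8 libraries and none in Holstein 1 or Angus 2, and it lay below the floor of 3 reads in 5 of 8 libraries. Few reads also lay in the first windows of SMAD7 (36, none in Angus 4) and SMAD2 (35, none in Holstein 1 or Angus 4). SMAD2 held 0.149 ± 0.114 CPM against 0.265 ± 0.0733 CPM (ratio 0.564). It was lower in 6 of 8 libraries with an adjusted p of 0.0451 by the exact permutation test, and the call was lost without any 1 of Holstein 1, Holstein 2 or the 4 Angus libraries (adjusted p = 0.0861 to 0.0872). Without both concentrated libraries, 7 members were lower and 1 was higher in every remaining library, as in all 8.

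**Figure D3:**
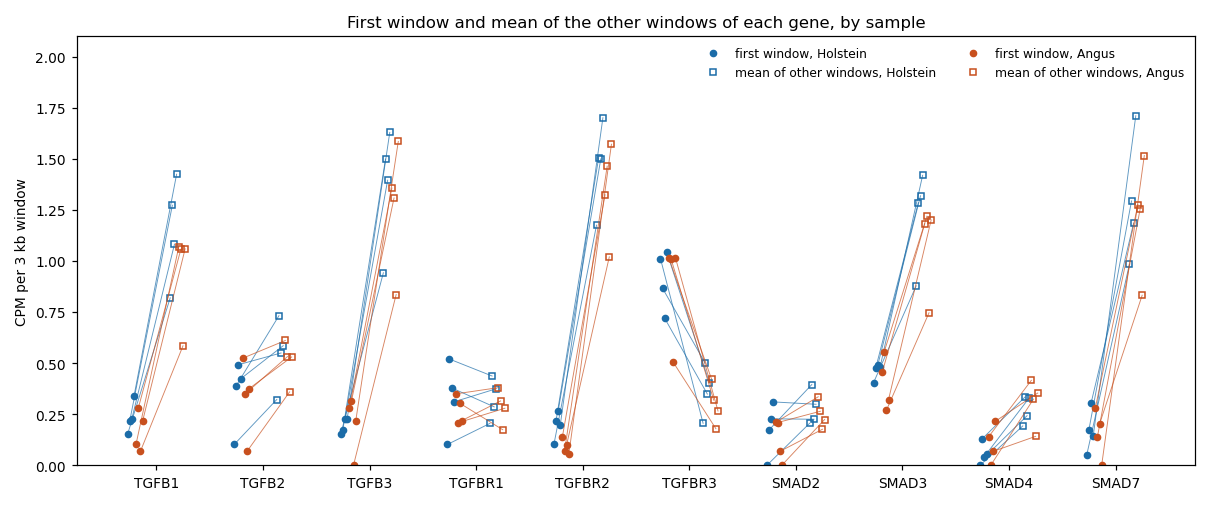
CPM of the first window (filled circles) joined to the mean CPM of the other windows (open squares) of each gene, 1 line per library, blue for Holstein and orange for Angus. Lines rise steeply in TGFB1, TGFB3, TGFBR2, SMAD3 and SMAD7, are nearly level in TGFBR1, and fall in TGFBR3 in all 8 libraries.

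Against the 2 windows upstream of the gene, the first window was lower in 5 members and higher in 1, where 30.1% of 26042 genes were lower and 32.8% higher. TGFB1 (0.200 against 1.17 CPM), TGFBR1 (0.298 against 0.555 CPM), TGFBR2 (0.143 against 0.520 CPM), SMAD2 (0.149 against 0.499 CPM) and SMAD4 (0.0806 against 0.472 CPM) were lower in 8 of 8 libraries, and TGFBR3 (0.897 against 0.561 CPM) was higher in 8 of 8, each with an adjusted p of 0.0166 by the exact permutation test. In TGFBR1 the first window was thus below the mean of its 2 upstream windows although it did not differ detectably from the rest of the gene. The farther of these upstream windows held 0.816 CPM. The nearer one held 0.294 CPM, the level of the first window, so the difference came from the farther window. TGFB3 (0.198 against 0.192 CPM) and SMAD3 (0.431 against 0.436 CPM) had flanks at the level of the first window (exact permutation test, adjusted p = 0.921 and 0.908). SMAD7 was lower in 6 of 8 libraries and TGFB2 higher in 6 of 8, and neither passed (exact permutation test, adjusted p = 0.0708 and 0.111). Of the 40 flanking windows, 7 carry the name of another gene. Beside TGFB1, both upstream windows carry B9D2 and both downstream windows CCDC97. Beside TGFB3, the farther upstream window carries IFT43 with its coding exon 1, and both downstream windows carry TTLL5. The upstream level of TGFB1 is thus that of windows of B9D2, and the upstream level of TGFB3 includes the window of IFT43.

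Holstein and Angus fibroblasts were compared to ask whether methylation of the pathway differed between a dairy and a beef breed. No window, gene or first window of the 10 members was called at FDR < 0.1 and FC ≥ 2 by edgeR's likelihood-ratio test fitted on the whole genome. Of the 266 windows, 58 reached 1 CPM in 4 or more libraries and were tested, 51 in the genes and 7 in the flanks. SMAD2 and SMAD4 had none, and TGFBR3 had the only first window. A total of 0 of 58 were called, where 0.231% of 115360 windows were. The quasi-likelihood test and DESeq2 also called 0. At an unadjusted p under 0.05 there were 2 of 58, where 4.94% of all windows passed. Without the CPM filter, 266 windows were tested, 0 were called (0.102% of 887821 windows) and 8, or 3.01%, had an unadjusted p under 0.05 (4.55% of all windows). The median log2 fold change (Holstein over Angus) of the 58 windows was 0.01, beside 0.00 for all windows, and ran from -0.75 to 0.53.

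Among the 58 windows tested with the CPM filter, the smallest p was that of the second window of TGFB3. This window lies between coding exons 1 and 2, on chromosome 10 from 88262601 to 88265600. It held 0.405, 0.736, 1.02 and 0.816 CPM in Holstein 1 to 4 and 1.22, 0.974, 1.14 and 1.18 CPM in Angus 1 to 4. Holstein 3 lay above Angus 2, so the breeds overlapped. The log2 fold change was -0.75 (SE 0.26, 95% interval -1.26 to -0.25), with an unadjusted p of 0.00363 and an adjusted p of 0.405 by edgeR's likelihood-ratio test. Without Holstein 1, the lowest library, and Angus 3 it was -0.50, with an adjusted p of 0.983. The other was the 21st window of TGFBR2, on chromosome 22 from 5200767 to 5203766, with 1.31, 1.51, 1.02 and 2.00 CPM in Holstein 1 to 4 and 1.05, 1.15, 0.403 and 1.18 CPM in Angus 1 to 4. Angus 3 was far below the rest and the breeds overlapped. The log2 fold change was 0.53 (SE 0.24), with an adjusted p of 0.859 by the same edgeR test, and 0.34 without Holstein 1 and Angus 3. The smallest p of the other members with a tested window lay in windows 28 of SMAD3, 5 of SMAD7, 8 of TGFB2, 16 of TGFBR1, 1 of TGFBR3 and a flanking window of TGFB1, all with an unadjusted p of 0.0505 or more. By edgeR's likelihood-ratio test without the CPM filter, window 12 of TGFBR3 had an unadjusted p of 0.00166 and an adjusted p of 0.545. This unadjusted p was below that of the TGFB3 window. The log2 fold change was 1.68 (95% interval 0.63 to 2.73). Window 12 held 0.152 to 0.692 CPM in Holstein and 0 to 0.175 CPM in Angus, with overlapping breeds. The breeds did not overlap in 1 of the 266 windows, where 1.23% of placed windows were so. It was window 32 of TGFBR3, which did not pass the CPM filter, with 0.405 to 0.649 CPM in Holstein and 0.201 to 0.382 CPM in Angus.

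Summed over all windows of a gene, the 10 members had 632 reads (SMAD4) to 10175 reads (SMAD3) over the 8 libraries. None was called and none had an unadjusted p under 0.05 by edgeR's likelihood-ratio test, where 0.0568% and 2.08% of 19371 genes did, and the quasi-likelihood test and DESeq2 called 0. The log2 fold change (Holstein over Angus) was lowest in SMAD4 with -0.32 (SE 0.19, 95% interval -0.68 to 0.05). It held 0.175, 0.315, 0.224 and 0.305 CPM per window in Holstein 1 to 4 and 0.390, 0.294, 0.134 and 0.340 CPM in Angus 1 to 4, with overlapping breeds. Without Holstein 1 and Angus 3 the log2 fold change of SMAD4 was -0.43, with an unadjusted p of 0.0247 and an adjusted p of 1.00 by edgeR's likelihood-ratio test, and that of TGFB1 was 0.11. The highest with all libraries was TGFB1 with 0.15 (SE 0.13, 95% interval -0.11 to 0.41), and its values were 0.708, 1.10, 0.940 and 1.24 CPM per window in Holstein 1 to 4 and 0.908, 0.927, 0.498 and 0.918 CPM in Angus 1 to 4. In the other 8 genes the 95% intervals lay between -0.34 and 0.41. With all 8 libraries the intervals of all 10 genes excluded a 2-fold difference of the gene sum, which does not exclude one in a single window. The direction depended on the scaling in 4 genes: with total counts in place of TMM, TGFB2, TGFB3, TGFBR2 and SMAD7 moved to the Holstein side, while the median of all genes moved from -0.02 to 0.15.

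In 6 of the 10 members the first window held too few reads for such bounds. A total of 0 of 10 were called and 0 had an unadjusted p under 0.05 by edgeR's likelihood-ratio test, where 0.236% and 4.97% of 24958 first windows did, and the quasi-likelihood test and DESeq2 called 0. The log2 fold changes ran from -0.90 (SE 0.76, 95% interval -2.40 to 0.59) in SMAD4 to 0.86 (SE 0.58, 95% interval -0.28 to 2.00) in TGFBR2. Without Holstein 1 and Angus 3 they were -0.73 in SMAD4 and 1.11 in TGFBR2, and neither was called. For TGFB2, TGFBR1, TGFBR3 and SMAD3 the interval excluded a 2-fold difference, and for the other 6 it did not.

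**Figure D4:**
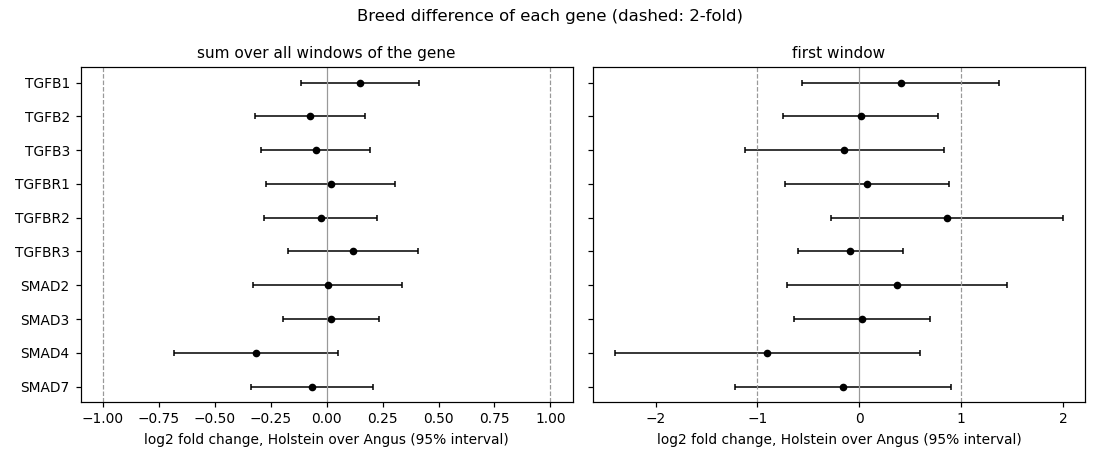
Log2 fold change of Holstein over Angus (horizontal axis, a different range in each panel) with its 95% interval for each gene, for the sum over all windows (left) and the first window (right), from edgeR's likelihood-ratio fits. Dashed lines mark a 2-fold change; all intervals cross 0, and those of the gene sums stay within 2-fold.

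Of 73 further genes of the TGF-beta superfamily pathway, 72 were found by symbol and 69 had more than 1 window. Their first window was lower than the rest of the gene in 45 of 69, higher in 8 and not called in 16, where 48.1% of all genes were lower and 21.2% higher, with a median ratio of 0.556 beside 0.706 for all genes. By role, 10 of 13 other ligands were lower and 2 higher, as were 6 and 0 of 8 genes of latency and activation, 7 and 1 of 11 other receptors, 3 and 0 of 4 other SMADs, 6 and 3 of 14 intracellular regulators, 6 and 1 of 8 extracellular inhibitors and 7 and 1 of 11 target genes. At the low end stood the first windows of DCN (decorin, an extracellular inhibitor of TGF-beta) with 0.0248 ± 0.0283 CPM, MAP3K7 (the kinase TAK1) with 0.0509 ± 0.0555 CPM and ITGAV (the integrin alpha v chain, which takes part in releasing latent ligand) with 0.0944 ± 0.0449 CPM. ACVR2A (an activin receptor), POSTN (periostin, a matrix protein), GDF11 (a ligand) and SMAD5 (a mediator of BMP signals) followed with 0.108, 0.114, 0.124 and 0.150 CPM. At the high end were NEDD4L (a ubiquitin ligase) with 2.22 ± 0.631 CPM and LEFTY2 (an antagonist of nodal) with 2.01 ± 0.364 CPM. INHA (the inhibin alpha chain), ENG (endoglin, a co-receptor as TGFBR3 is), SMAD1 (a mediator of BMP signals) and LRRC32 (a protein that holds latent TGF-beta on the cell surface) had 1.12, 1.09, 1.05 and 1.00 CPM. The first window of LEFTY2 was above the rest of its gene in 8 of 8 libraries, as that of TGFBR3 was, while in ENG the levels had a ratio of 0.884 and did not pass (exact permutation test, adjusted p = 0.131). Between the breeds, edgeR's likelihood-ratio test called 0 of 62 gene sums and 0 of 71 first windows of these genes. An unadjusted p under 0.05 was reached by 0 of the 62 gene sums, where 2.08% of all genes reached it, and by 7 of the 71 first windows, where 4.97% of all first windows did.

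Among markers of cell types, the first window was lower than the rest of the gene in 7 of 9 fibroblast markers and higher in 1, lower in 0 and higher in 2 of 4 keratinocyte markers, lower in 2 and higher in 1 of 4 blood cell markers, lower in 2 and higher in 1 of 3 endothelial markers, and lower in 1 and higher in 2 of 3 melanocyte markers. Together 12 of 23 were lower and 7 higher, beside the 48.1% and 21.2% of all genes. First-window levels ranged from 0.0435 CPM in LUM to 3.88 CPM in COL5A1, both fibroblast markers. Between the breeds, edgeR's likelihood-ratio test called 0 of 20 gene sums and 0 of 23 first windows of markers. The gene sum of the fibroblast marker COL1A1, a collagen chain, was the only one with an unadjusted p under 0.05, with a log2 fold change of -0.44 (SE 0.22) and an adjusted p of 1.00. Methylation does not measure expression, and the part of other cell types in the results was not tested.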

How the data were processed

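MIRA-Seq libraries of 8 cultures were used. The authors removed reads of low quality, used NextGENe 2.3.4 for alignment to UMD v3.1, and deposited the raw count of reads in each 3Kb window, without normalization, with a gene name and coding exon. Base calling used CASAVA 1.7 per the submitters' processing notes. How duplicate reads were handled is not given in the sources used here. Counts were divided by each library's total over windows for CPM. Breeds were compared with edgeR 4.0.16 in R 4.3.3 (TMM, generalized linear model likelihood-ratio test, Benjamini-Hochberg adjustment) over all windows that reached 1 CPM in 4 or more libraries, over sums per gene under the same filter, and over first windows with at least 10 reads in all. Standard errors follow from the likelihood-ratio p. First windows were compared within libraries by exact sign-flip permutation tests in Python 3.11.15. The likelihood-ratio fits and the sign-flip test were also run on simulated counts. In these no library was concentrated as Holstein 1 and Angus 3 were, so the simulations do not cover that feature of the data. Alternatives included the quasi-likelihood test, DESeq2 1.42.0, other scalings and filters, a replicate block and leaving out each library.

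The members and the gene lists were chosen with earlier results of these data known. All 10 members are named; the windows named are each member's first window, its highest window and the one with the smallest p, and of the pathway list the highest and lowest first window of each role, except for 1 gene that is not reported here. A marker list was read for 5 cell types. LTBP4 was not matched by symbol and is not analysed here. The top 5% windows, COL1A1, windows 12, 31 and 32 of TGFBR3 and the 13th, 37th and like windows of the high genes were singled out after their values were seen. No genome sequence of this build was used, so the planned CpG counts of promoters were not made.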

Additional observations from a re-analysis of the deposited data

Results flagged for a closer look

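In 4 of 58 breed groups screened, 1 library stood apart from the other 3 of its breed by Dixon's test, where chance gives about 1 in 20. In each it was Angus 3, one of the libraries whose reads were most concentrated in few windows, and it was the lowest. TGFB1 held 0.498 CPM per window in Angus 3 and 0.908 to 0.927 CPM in the other Angus libraries, and its last window, the sixth, held 0.940 CPM against 1.495 to 1.605 CPM. SMAD3 held 0.735 CPM per window in Angus 3 against 1.17 to 1.20 CPM, and the first window of TGFBR3 held 0.504 CPM against 1.01 to 1.02 CPM. The median of all genes in Angus 3 was 0.329 CPM per window, the lowest of the 8 libraries.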

How the results depend on the processing

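No alternative called a member window, gene sum or first window between the breeds: the count was 0 under the quasi-likelihood test, DESeq2, other scalings and filters, FDR < 0.05, without both concentrated libraries (chosen after seeing the data) and without each library in turn. Adjusted p was at least 0.197 for named windows, 0.755 for gene sums and 0.861 for first windows. Over the whole genome the likelihood-ratio test called 267 windows, the quasi-likelihood test 141, DESeq2 142 and the unfiltered fit 905. Animal numbers did not pair the libraries (correlation of same-numbered libraries -0.12 to 0.16, with 2 of 8 libraries closest to their own number), and with a replicate block 0 were called in each comparison (log2 fold change of window 2 of TGFB3 -0.77). The count of members with a lower or higher first window stayed within 1.5 times under every alternative counted. SMAD2 was the only member to lose its call in these, at a difference of -0.13 to -0.10 CPM without 1 library. Calls of first windows without both concentrated libraries are not given here. With 6 libraries the smallest unadjusted p of the exact permutation test is 0.0313. The level of TGFBR2 moved from 1.37 to 1.62 CPM per window when CPM was taken over placed chromosomes only.

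Signs turned only in differences that were not called; the cause was not tested. With total counts only, where the median of all windows, genes and first windows moved to 0.14, 0.15 and 0.16 on the log2 scale, the log2 fold change was 0.051 in window 1 of TGFBR3, 0.11 in the gene sums of TGFB2 and TGFB3, 0.13 in TGFBR2 and 0.091 in SMAD7, and in the first windows of TGFBR3 and SMAD7 0.051 and 0.047. Window 16 of TGFBR1 had -0.0085 without the CPM filter. Without both concentrated libraries it had -0.046, the gene sum of TGFB2 had 0.0037, and the first windows of TGFB2, SMAD3 and SMAD7 had -0.10, -0.078 and 0.24. The log2 ratio of the first window of TGFB3 to its upstream flank was -0.032. Without 1 library at a time, the ranges were -0.067 to 0.12 (window 16 of TGFBR1) and -0.23 to 0.012 (window 1 of TGFBR3). For gene sums they were -0.16 to 0.0032 (TGFB2), -0.083 to 0.034 (TGFB3), -0.081 to 0.12 (TGFBR1), -0.081 to 0.028 (TGFBR2), -0.11 to 0.12 (SMAD2), -0.0032 to 0.059 (SMAD3) and -0.15 to 0.0069 (SMAD7). For first windows they were -0.23 to 0.29 (TGFB2), -0.48 to 0.13 (TGFB3), -0.14 to 0.30 (TGFBR1), -0.28 to 0.042 (TGFBR3), -0.054 to 0.17 (SMAD3) and -0.57 to 0.12 (SMAD7). First minus other windows of TGFBR1 ran from -0.0275 to 0.0060 CPM, and first minus upstream from -0.0156 to 0.0259 CPM in TGFB3 and -0.0273 to 0.0044 CPM in SMAD3.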
